A study of Rattus norvegicus with 6 samples.

Results

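Integrin and laminin subunit genes are described here in the ventral hippocampus of outbred male rats of the Sprague Dawley strain, 3 of them adult (4 months old) and 3 aged (22 months old). The genes were chosen by symbol alone: every Itga gene other than Itgam and Itgax, every Itgb gene with a number, and every Lama, Lamb or Lamc gene, which gave 35 of the 22601 genes in the deposited count table, 24 integrin and 11 laminin subunits. All rats were untreated as far as the labels say, had swum in the Morris water maze before tissue was taken, and were drawn at random from groups of 10, each library coming from a separate animal. Each value list below runs from replicate 1 to replicate 3 of an age.

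Laminins are large secreted heterotrimers of an alpha, a beta and a gamma chain that polymerise into the basement membrane, in the brain mainly the sheet around blood vessels and beneath the pia. Integrins are transmembrane heterodimers of an alpha and a beta subunit that bind laminin, collagen, fibronectin and other ligands outside the cell and connect to actin through talin and kindlin inside it. In the hippocampus, vessel cells, astrocyte endfeet, microglia and neurons each carry their own set, and integrins at synapses are known for a part in synaptic plasticity.

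Library totals lay between 12476758 and 15689921 counts. CPM are library-size-normalised counts, scaled between libraries by the TMM method, and serve to compare a gene between libraries; FPKM, which also divide by gene length, serve to compare genes. Transcripts of hippocampal neurons were present throughout: Snap25 stood between 2092 and 2780 CPM, Slc17a7, the vesicular transporter of glutamatergic terminals, between 681 and 1338 CPM, and Prox1, a granule cell factor, between 28.4 and 100.1 CPM, while Spink8, known from pyramidal cells, was at or under 0.666 CPM. Neurod6 lay between 110 and 193 CPM and Gad1 between 204 and 330 CPM. The neuron marker Wfs1 varied more, at 35.0, 224 and 233 CPM in the adult and 132, 162 and 76.7 CPM in the aged libraries. Rbfox3 ranged from 31.4 to 86.3 CPM. Wfs1, Rbfox3 and Slc17a7 were each lowest in adult replicate 1. Adult replicate 1 held choroid plexus RNA: 10 markers of that tissue summed to 2183 CPM there and to 12.8 to 78.7 CPM elsewhere, with Otx2 at 0 in every library. Adult replicate 3 held the most skeletal muscle RNA (528 CPM over 10 markers, against 39.7 to 159.9 CPM) and had Cd3e, a T cell gene, at 8.40 CPM against at most 0.241 CPM, while the T cell genes Cd3g, Cd3d and Cd2 were at 0 counts in that library. Alb, the liver's albumin gene, stood at 16.9, 430.0 and 396 CPM in the adult and at 16.0, 205 and 162 CPM in the aged libraries. It was thus low in replicate 1 of both ages, as were the liver genes Ahsg and Serpina1. The 8 oligodendrocyte markers summed to 11620 to 17506 CPM in adult and 6840 to 9152 CPM in aged libraries. The part of any of these in the subunits' values was not tested.

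No integrin or laminin subunit differed between the ages at the threshold. Of the 35 subunits, 30 passed edgeR's filter on low counts and were tested, and 0 were called at an adjusted p under 0.05 by the quasi-likelihood test of edgeR, with Benjamini-Hochberg adjustment over all 14588 genes tested, where 0 genes (0%) were called, and every member had an adjusted p of 1.00. DESeq2 and limma-voom also called 0 members, DESeq2 calling 31 and limma-voom 0 of all genes. At an unadjusted p under 0.05 by edgeR there was 1 member, Itgb1, lower in aged rats, against 2.27% of all genes lower and 1.18% higher at that level. The values of 20 members were lower and 10 higher in aged rats (all genes: 50.5% lower), with a median log2 fold change of -0.090 over the 30, -0.15 over the 11 laminins and -0.065 over the 19 tested integrins, beside -0.0022 over all genes. Without adult replicate 2 the medians were 0.018 for laminins and 0.078 for integrins, so the side of 0 on which they lay rested on that library.

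**Figure D1:**
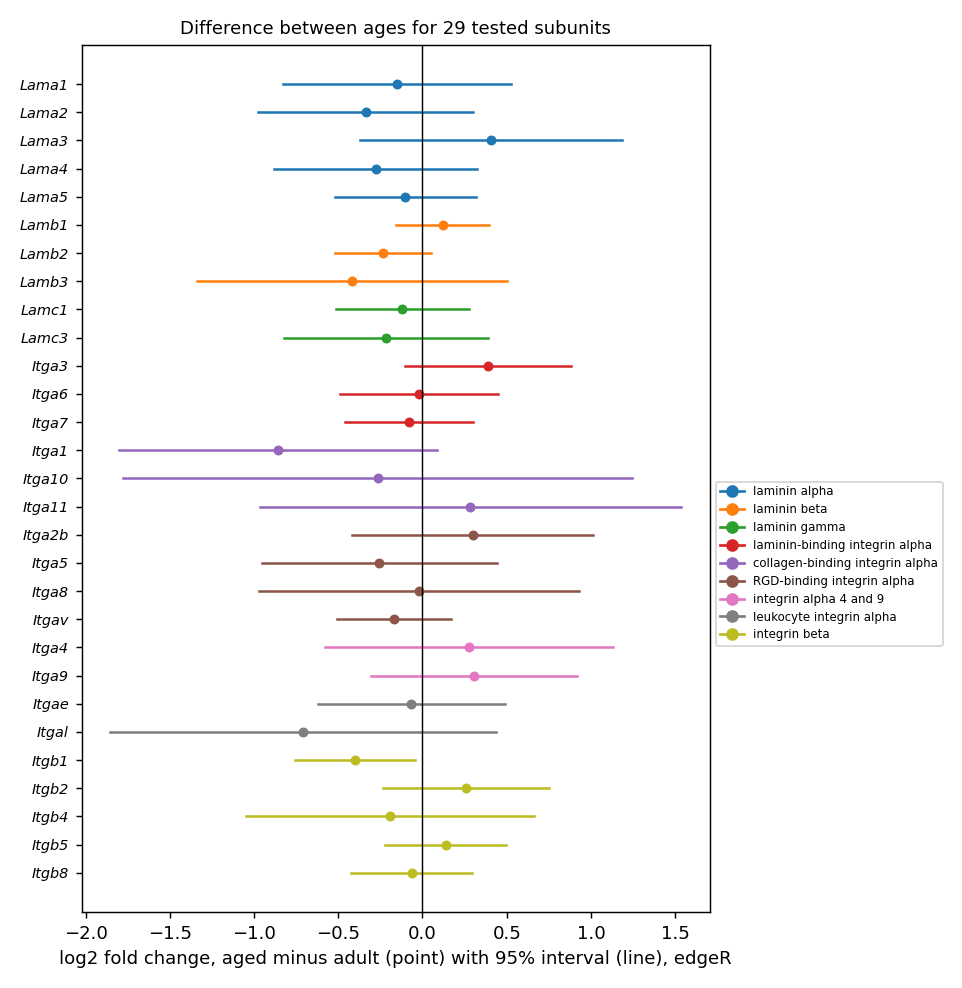
Log2 fold change, aged minus adult, of 29 tested subunits with its 95% interval from edgeR (x axis), 1 subunit per line, coloured by role. Among the subunits shown, the interval of Itgb1 alone leaves out 0, and thinly expressed subunits such as Itga10 and Itga11 have the widest intervals.

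The precision of these comparisons differed widely between subunits. The 95% interval of the log2 fold change lay within 2-fold in both directions for 20 of the 30 members, and within 1.5-fold for 9 of them. For the other 10 members, changes past 2-fold in at least 1 direction lay inside the interval. Every aged value lay below every adult value in 3 tested members, Itga1, Itga5 and Lamb2 (4.43% of all genes), and above every adult value in 1, Itga3 (3.13% of all genes).

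Laminin alpha chains carry the cell-binding end of the trimer and differ most between tissues. Lama4, the alpha chain typical of endothelial basement membrane, was the most abundant of them per length, at 2.72 ± 0.758 FPKM (SD over 6 libraries), and made up 47.4% of the summed alpha chain FPKM. Lama5, the other alpha chain of vessels, stood at 0.997 ± 0.110 FPKM, Lama2, which pericytes, fibroblasts and astrocytes supply, at 0.836 ± 0.223, Lama3 at 0.760 ± 0.272 and Lama1, a chain of the pial basement membrane, at 0.374 ± 0.0794.

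Lama4 stood at 13.9, 24.7 and 15.5 CPM in the adult and at 14.4, 18.3 and 11.953 CPM in the aged libraries. Adult replicate 2 was high and the other adult libraries lay within the aged range. Its log2 fold change was -0.28 ± 0.26 (SE), with a 95% interval of -0.88 to 0.33, and 0.018 without that library. The same adult replicate carried the most endothelial transcripts: the 14 endothelial markers summed to 577, 724 and 538 CPM in the adult and 493, 556 and 421 CPM in the aged libraries. For the mural cells of the vessel wall, the 12 pericyte and smooth muscle markers summed to 185, 245 and 205 CPM in the adult and 173, 147 and 107 CPM in the aged libraries. In whole tissue, fewer vessel cells and less RNA per vessel cell cannot be told apart, and the part of vessel content in the laminin values was not tested.

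Lama2 stood at 12.2, 6.83 and 8.26 CPM in the adult and at 8.72, 6.83 and 6.01 CPM in the aged libraries. The highest value was in adult replicate 1 and the groups overlapped, with a log2 fold change of -0.34 ± 0.28 (SE) that was -0.060 without that replicate. Adult replicate 1 is the library with choroid plexus RNA. Lama3, an alpha chain known from epithelia, stood at 10.996, 5.94 and 5.13 CPM in the adult and at 8.65, 7.87 and 12.7 CPM in the aged libraries. It was highest in aged replicate 3 and next highest in adult replicate 1, and its log2 fold change of 0.41 ± 0.34 (SE) became 0.83 without adult replicate 1 and 0.17 without aged replicate 3.

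Lama5 averaged 11.7 ± 1.59 CPM at 4 months and 10.9 ± 0.495 CPM at 22 months (SD, n = 3), and its log2 fold change was -0.10 ± 0.18 (SE), with a 95% interval of -0.52 to 0.32. Lama1 averaged 4.15 ± 1.00 CPM at 4 months and 3.73 ± 0.621 CPM at 22 months, a log2 fold change of -0.15 ± 0.29. Both pairs of groups overlapped, and the sign of each value turned when 1 adult library was left out (0.011 for Lama5 without adult replicate 1 and 0.064 for Lama1 without adult replicate 2).

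Among the beta chains, Lamb2, the chain of mature vessels and of synaptic basement membrane at the nerve-muscle junction, and Lamb1, the more widely used chain, held most of the signal, at 12.4 ± 1.57 and 7.81 ± 0.805 FPKM. Lamb2 stood at 78.4, 79.8 and 68.3 CPM in the adult and at 57.2, 68.2 and 67.5 CPM in the aged libraries. All 3 aged values lay below all 3 adult values, though adult replicate 3 (68.3) and aged replicate 2 (68.2) were close. The log2 fold change was -0.23 ± 0.12 (SE), with a 95% interval of -0.52 to 0.052 and an unadjusted p of 0.0965 by edgeR.

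Lamb1 stood at 46.4, 53.0 and 45.3 CPM in the adult and at 48.4, 53.1 and 55.6 CPM in the aged libraries. The groups overlapped and its values were among the steadiest of the 30 members, with a highest library 1.23-fold above the lowest. Its log2 fold change was 0.12 ± 0.12 (SE), with a 95% interval of -0.16 to 0.39. Lamb3, a beta chain of epithelial laminin, stood at 1.84, 2.15 and 4.40 CPM in the adult and at 2.13, 2.09 and 2.07 CPM in the aged libraries. Adult replicate 3 was high and the other 5 libraries lay close together, and the log2 fold change of -0.42 ± 0.40 (SE) became 0.076 without it.

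The balance between the beta chains did not overlap between the ages, although neither chain alone passed the test. Lamb1 made up 33.5, 36.0 and 35.0% in the adult and 41.5, 39.6 and 41.0% in the aged libraries of the summed beta chain FPKM. The corresponding shares of Lamb2 were 64.7, 62.1 and 60.5% in the adult and 56.1, 58.3 and 57.0% in the aged libraries. FPKM of Lamb1 per FPKM of Lamb2, a ratio within each library that no scaling between libraries can move, was 0.517, 0.580 and 0.579 in the adult and 0.739, 0.680 and 0.720 in the aged libraries. The aged ratios were all higher than the adult ones, a mean difference of 0.35 on the log2 scale against a pooled SD between rats of 0.079. The ratio describes the balance of the chains in these libraries and does not say which of them differed. It was picked after its values were seen, so no test is given for it; an exact permutation test of 3 rats against 3 cannot give a p below 0.1.

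The gamma chain Lamc1, shared by most laminins, stood at 41.2, 48.2 and 32.9 CPM in the adult and at 39.8, 32.0 and 40.6 CPM in the aged libraries. The groups overlapped, with a log2 fold change of -0.12 ± 0.17 (SE) and a 95% interval of -0.51 to 0.27. Lamc3 averaged 9.31 ± 2.00 CPM at 4 months and 8.04 ± 2.02 CPM at 22 months (SD, n = 3), for a log2 fold change of -0.21 ± 0.26 (SE).

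**Figure D2:**
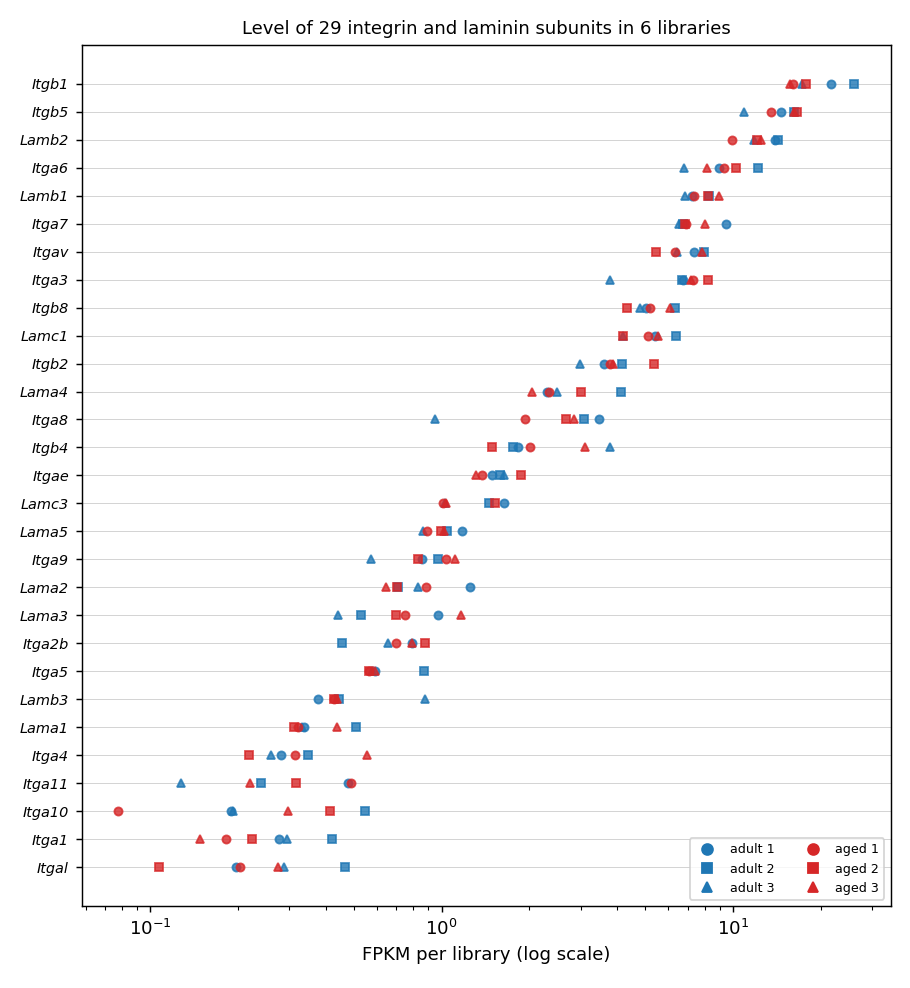
FPKM of 29 tested subunits in each of the 6 libraries (x axis, log scale), sorted by their mean, with adult libraries in blue and aged libraries in red. Itgb1 and Itgb5 lead, followed by Lamb2, Itga6 and Lamb1, and the spread between libraries widens toward the bottom, where subunits average under 1 FPKM.

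Itgb1 is the beta subunit that most alpha subunits pair with, and it had the highest level of all members, 19.1 ± 3.99 FPKM (SD over 6 libraries), above 72.2% of the genes tested. It stood at 81.6, 97.1 and 66.6 CPM in the adult and at 61.7, 67.2 and 57.1 CPM in the aged libraries. Adult replicates 1 and 2 lay above every aged library, while adult replicate 3 (66.6) lay just under aged replicate 2 (67.2), so the groups overlapped. The log2 fold change was -0.40 ± 0.15 (SE), with a 95% interval of -0.76 to -0.044, an unadjusted p of 0.0319 by edgeR and an adjusted p of 1.00. Without adult replicate 2 it was -0.26, and without adult replicate 3 -0.52. The RefSeq annotation of another assembly, GRCr8, places the protein-coding gene LOC134483511 over Itgb1, so reads of the pair may be mixed if strand was not used.

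Itgb5, an alpha v partner that binds vitronectin, had the next highest level, 14.7 ± 2.19 FPKM. It stood at 53.6, 59.2 and 41.4 CPM in the adult and at 50.7, 61.3 and 57.6 CPM in the aged libraries. The groups overlapped, adult replicate 3 was the lowest, and the log2 fold change was 0.14 ± 0.16 (SE) with a 95% interval of -0.22 to 0.50. Itgb8, which with alpha v frees TGF-beta from its latent form, stood at 41.8, 52.3 and 41.1 CPM in the adult and at 44.2, 36.1 and 48.8 CPM in the aged libraries. These groups overlapped as well, with a log2 fold change of -0.065 ± 0.16, and the interval of -0.43 to 0.30 lay within 1.5-fold.

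Itgb2, the beta subunit of leukocyte integrins, marks microglia in brain tissue. It stood at 11.4, 13.0 and 9.66 CPM in the adult and at 12.2, 16.9 and 11.8 CPM in the aged libraries, with overlapping groups and aged replicate 2 the highest. Its log2 fold change was 0.26 ± 0.21 (SE) and became 0.083 without that library. Aged replicate 2 also had the most microglial transcripts: 12 microglia and macrophage markers summed to 425, 435 and 340.4 CPM in the adult and 407, 549.5 and 376 CPM in the aged libraries, 9 of the 12 with higher values in aged rats, and the part of microglial content in Itgb2 was not tested. Itgb4, the partner of Itga6 in hemidesmosomes, averaged 14.6 ± 7.19 CPM at 4 months and 12.8 ± 4.43 CPM at 22 months (SD, n = 3). Its values were high in replicate 3 of both ages, at 22.9 and 17.5 CPM, and the log2 fold change of -0.19 ± 0.37 (SE) turned to 0.30 without adult replicate 3.

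In the integrin beta family, the shares of Itgb1, Itgb5 and Itgb2 did not overlap between the ages, while those of Itgb4 and Itgb8 did. Itgb1 supplied 45.7, 47.3 and 43.0% in the adult and 39.3, 38.8 and 34.8% in the aged libraries of the summed beta subunit FPKM. Itgb5 supplied 30.8, 29.6 and 27.4% in the adult and 33.1, 36.3 and 36.0% in the aged libraries. Itgb2 supplied 7.62, 7.57 and 7.44% in the adult and 9.26, 11.7 and 8.55% in the aged libraries. In aged rats the Itgb1 share was thus lower and the Itgb5 and Itgb2 shares higher in 3 of 3 libraries than in any adult library. FPKM of Itgb1 per FPKM of Itgb5 was 1.49, 1.60 and 1.57 in the adult and 1.19, 1.07 and 0.967 in the aged libraries, a mean difference of -0.53 on the log2 scale against a pooled SD of 0.11. Itgb1 per Itgb2 was 5.9982, 6.25 and 5.78 in the adult and 4.25, 3.32 and 4.07 in the aged libraries, a mean difference of -0.64 with a pooled SD of 0.14. Shares of 1 family add up to a whole, so these shifts are not independent of each other.

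**Figure D3:**
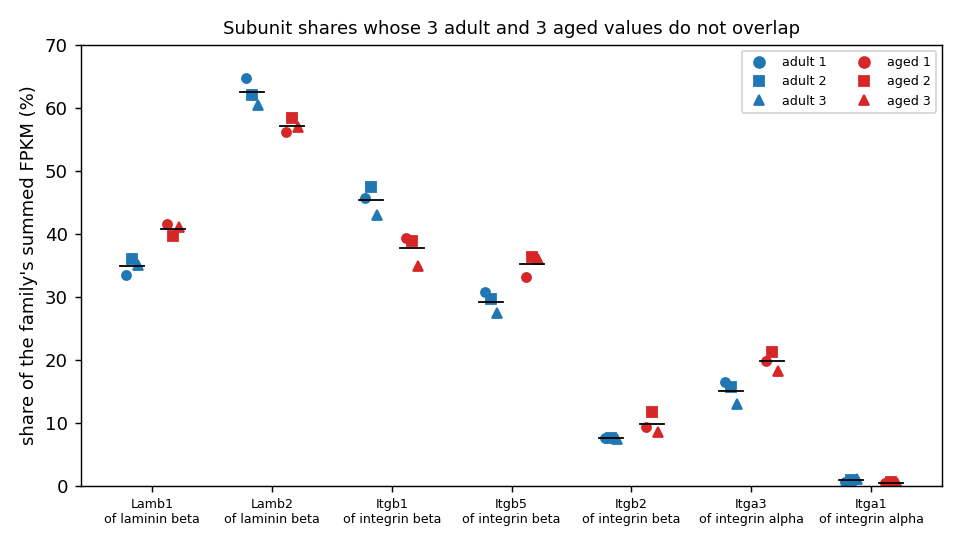
Share of each subunit in the summed FPKM of its family (y axis, percent) per library, adult in blue and aged in red, with a line at the mean of 3 rats. Shown are the 7 of 30 tested members whose adult and aged shares do not overlap, chosen for that: Lamb1, Itgb5, Itgb2 and Itga3 are higher and Lamb2, Itgb1 and Itga1 lower in aged rats.

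Over all families, the shares of 7 of the 30 tested members did not overlap between the ages, 3 lower and 4 higher in aged rats. Of 117 ratios between tested subunits of 1 family, 15 did not overlap: 11 of 91 integrin alpha pairs, 2 of 10 integrin beta pairs, 1 of 3 laminin beta pairs and 1 laminin alpha pair (Lama2 per Lama3, chosen by its values), with 0 among the gamma chains. No such counts of shares or ratios were made over other genes, so these have no measured background. The 4.43% and 3.13% given above are for single genes, a different quantity. For 1 quantity fixed in advance, groups of 3 that do not overlap reach only 0.1, the smallest p of an exact permutation test. Many of the ratios share a subunit, so they are not separate findings. The shares and ratios are therefore a description of these 6 libraries. Summed FPKM of each family overlapped between the ages, with integrin alpha subunits at 37.6 ± 7.38 in adult and 38.3 ± 1.41 in aged rats and beta subunits at 47.4 ± 7.43 and 43.9 ± 2.72.

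The promoters of Itgb1 and Itgb5 are shown because the shares of these 2 most abundant subunits lay on opposite sides in aged rats. Each runs from 250 bases before to 50 bases after the RefSeq start in GRCr8, printed 5′ to 3′ along the gene's strand, with every GC box (GGGCGG on either strand) in capitals.
Itgb1 (GRCr8, chr19:73602027-73602326, plus strand): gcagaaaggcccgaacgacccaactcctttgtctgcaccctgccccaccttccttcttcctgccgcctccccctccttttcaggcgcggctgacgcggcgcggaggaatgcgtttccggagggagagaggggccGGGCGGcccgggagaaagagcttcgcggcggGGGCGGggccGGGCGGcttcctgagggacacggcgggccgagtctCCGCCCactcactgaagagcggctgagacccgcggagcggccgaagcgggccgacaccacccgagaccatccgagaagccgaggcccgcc
Itgb5 (GRCr8, chr11:80449324-80449623, minus strand): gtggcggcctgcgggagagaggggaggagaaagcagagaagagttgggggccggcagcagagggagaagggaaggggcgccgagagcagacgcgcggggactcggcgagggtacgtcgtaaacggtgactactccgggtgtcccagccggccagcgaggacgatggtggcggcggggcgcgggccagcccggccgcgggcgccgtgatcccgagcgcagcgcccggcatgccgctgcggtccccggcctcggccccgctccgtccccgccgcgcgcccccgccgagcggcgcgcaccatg
The Itgb1 window held 4 GC boxes and 35 CpG dinucleotides at 71.7% GC, and the Itgb5 window held 0 GC boxes and 45 CpG dinucleotides at 76.7% GC. Neither held a CCAAT box (CCAAT) or a TATA box (TATAAA) on either strand. Of 33469 rat promoter windows of this length, 33.1% held a GC box, 37.5% a CCAAT box and 14.2% a TATA box. Promoters of 26 of the 35 members were in the RefSeq table, and 14 of these held a GC box. These are letters in a window, and no measurement of factor binding was made.

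Of the alpha subunits that bind laminin, Itga6, Itga7 and Itga3 together made up between 58.8% and 65.2% of the summed alpha subunit FPKM in every library. Itga6, carried by endothelium and other laminin-anchored cells, led the alpha subunits at 9.26 ± 1.83 FPKM and stood at 55.1, 74.3 and 43.0 CPM in the adult and at 58.4, 63.2 and 48.4 CPM in the aged libraries. It was highest in adult replicate 2 and lowest in adult replicate 3, the groups overlapped, and its log2 fold change of -0.021 ± 0.20 (SE) became 0.21 without adult replicate 2.

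Itga3 stood at 33.3, 32.6 and 19.1 CPM in the adult and at 36.5, 40.6 and 34.1 CPM in the aged libraries. All 3 aged values were above the adult ones, though adult replicates 1 and 2 were close to the lowest aged value and only adult replicate 3 was far below. The log2 fold change was 0.39 ± 0.21 (SE), with a 95% interval of -0.11 to 0.88 and an unadjusted p of 0.108 by edgeR, and it was 0.18 without adult replicate 3. Its share of the alpha subunit FPKM, 16.4, 15.7 and 13.0% in the adult and 19.8, 21.2 and 18.3% in the aged libraries, did not overlap between the ages.

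Itga7, the laminin receptor of muscle that vessel smooth muscle and astrocytes also carry, stood at 42.8, 30.4 and 30.5 CPM in the adult and at 31.9, 31.2 and 35.0 CPM in the aged libraries. Adult replicate 1 was the highest and the groups overlapped, with a log2 fold change of -0.079 ± 0.16 (SE) and a 95% interval of -0.46 to 0.30. The 10 skeletal muscle markers summed to 156, 152 and 528 CPM in the adult and 159.9, 39.7 and 93.1 CPM in the aged libraries. Their part in the Itga7 values was not tested. The protein-coding gene Mettl7b overlaps Itga7 in GRCr8, so reads of the pair may be mixed.

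Among alpha subunits that bind the RGD (arginine-glycine-aspartate) motif of fibronectin and vitronectin, Itgav was the main one at 6.88 ± 0.988 FPKM. It stood at 55.9, 60.3 and 50.3 CPM in the adult and at 49.1, 41.5 and 57.3 CPM in the aged libraries. The groups overlapped and aged replicate 2 was lowest, with a log2 fold change of -0.17 ± 0.15 (SE) that was -0.052 without that library. Itga5, the fibronectin receptor of vessels, averaged 3.00 ± 0.690 CPM at 4 months and 2.51 ± 0.0199 CPM at 22 months (SD, n = 3) from at most 60 counts in a library. Its groups did not overlap, but adult replicates 1 and 3 (2.60 and 2.60 CPM) lay next to aged replicate 1 (2.53 CPM), and the log2 fold change of -0.26 ± 0.30 (SE) was -0.050 without adult replicate 2. Itga8 was low in adult replicate 3 alone, at 6.20 CPM against 12.6 to 22.1 CPM in the other 5 libraries. Itga2b, the platelet subunit, averaged 3.03 ± 0.816 CPM at 4 months and 3.73 ± 0.401 CPM at 22 months, a log2 fold change of 0.30 ± 0.31 (SE).

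The collagen-binding subunits were scarce. Itga1, found on pericytes and smooth muscle, had the second smallest p of the members and stood at 1.09, 1.64 and 1.20 CPM in the adult and at 0.732, 0.884 and 0.563 CPM in the aged libraries. Every aged value was below every adult value, but these rest on 9 to 26 counts per library. Its log2 fold change was -0.86 ± 0.41 (SE), with a 95% interval of -1.80 to 0.089 and an unadjusted p of 0.0702 by edgeR. Pelo lies over Itga1 in GRCr8, so that count may hold reads of Pelo. Itga10 and Itga11, collagen receptors of cartilage and fibroblasts, ranged from 0.399 to 2.72 and from 0.733 to 2.80 CPM with overlapping groups.

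Itga9, which binds tenascin and VCAM, stood at 6.01, 6.76 and 4.13 CPM in the adult and at 7.45, 5.86 and 7.57 CPM in the aged libraries. Aged replicates 1 and 3 were above every adult library and aged replicate 2 was not, giving a log2 fold change of 0.31 ± 0.27 (SE). Itga4, the other member of this subgroup and a homing receptor of lymphocytes, averaged 3.27 ± 0.461 CPM at 4 months and 3.94 ± 1.77 CPM at 22 months (SD, n = 3), and its log2 fold change of 0.27 ± 0.37 (SE) turned to -0.13 without aged replicate 3. Cerkl overlaps Itga4 in GRCr8.

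Of the leukocyte subunits, Itgal, the LFA alpha chain of lymphocytes and myeloid cells, stood at 0.888, 2.09 and 1.33 CPM in the adult and at 0.932, 0.482 and 1.19 CPM in the aged libraries. Adult replicate 2 was the highest and aged replicate 2 the lowest, on 6 to 33 counts, with a log2 fold change of -0.71 ± 0.50 (SE) and a 95% interval of -1.85 to 0.44. Itgae, which pairs with Itgb7 on T cells in epithelia and binds E-cadherin, averaged 6.44 ± 0.396 CPM at 4 months and 6.16 ± 1.31 CPM at 22 months (SD, n = 3), for a log2 fold change of -0.067 ± 0.24 (SE). Its partner Itgb7 reached at most 0.399 CPM and 11 lymphocyte markers summed to at most 1.37 CPM in 5 libraries and 9.13 CPM in adult replicate 3, of which Cd3e gave 8.40 CPM. In GRCr8 Itgae overlaps Haspin, so reads of the pair may be mixed.

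The 5 members that failed the filter on low counts were Itga2, Itgad, Itgb3, Itgb6 and Itgb7. Itga2 and Itgad, the platelet collagen receptor and a leukocyte subunit, had at most 3 and 2 counts in a library. Itgb3, the partner of Itga2b and of alpha v, had 3, 10 and 7 counts in the adult and 3, 1 and 2 counts in the aged libraries. Itgb6, an epithelial partner of alpha v, had 41 counts (2.80 CPM) in adult replicate 1 and 4 to 10 in the other libraries. That is the library with choroid plexus RNA, in which Ttr, the transthyretin gene, stood at 2076 CPM. In GRCr8, 18 of the 35 members overlap another gene, while Lamb1, Lamb2, Itgb5, Itga6 and Itgb8 overlap none.

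Across subunits, 2 adult libraries stood out at opposite ends of the range. Adult replicate 2 held the highest of the 6 values in 12 of the 30 tested members, and adult replicate 3 the lowest in 11, where over all genes these libraries were highest in 15.6% and lowest in 16.6%. In the aged group, replicate 2 was highest in 6 and lowest in 8 members, against 18.5% and 18.9% of all genes. The deviations of adult replicate 2 from the mean of 6 libraries had a median of 0.18 on the log2 scale for laminins and 0.14 for integrins, and those of adult replicate 3 -0.15 and -0.13. Adult replicate 2 also had the highest endothelial and mural marker sums, and adult replicate 3 the highest muscle sum. The part of these cell contents in the subunits' deviations was not tested.

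**Figure D4:**
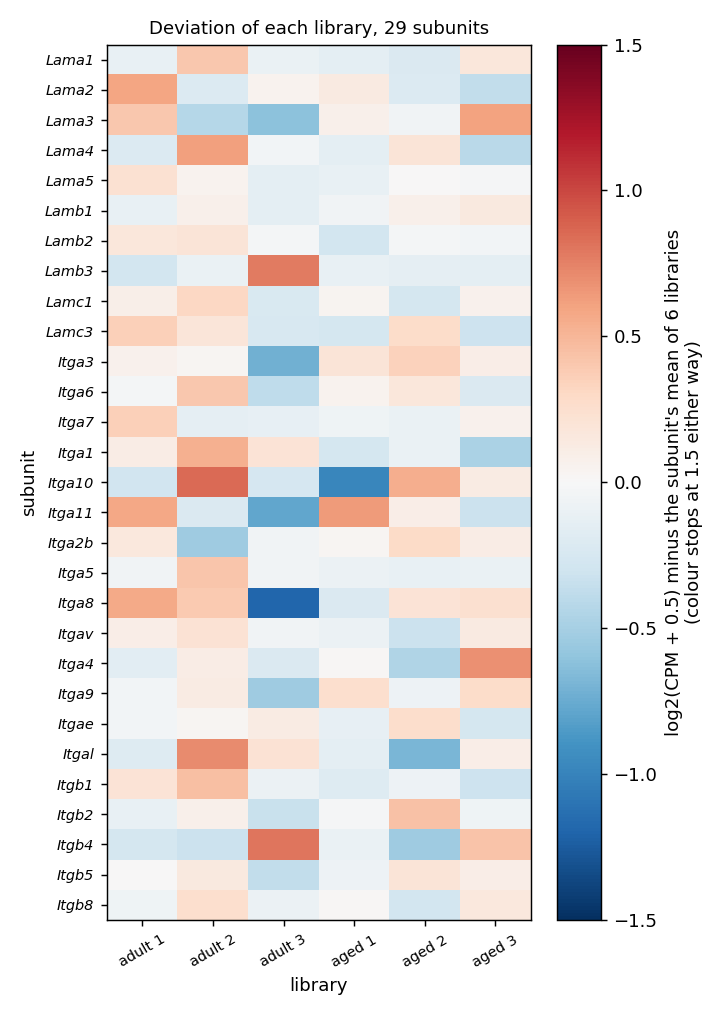
Deviation of each library from the subunit's mean of 6 libraries, as log2(CPM + 0.5), for 29 tested subunits (lines) in 6 libraries (columns), red above and blue below the mean. Adult replicate 2 is mostly red and adult replicate 3 mostly blue, while the aged columns are mixed.

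Genes around the laminins and integrins were read from lists of pathway genes. For all lists below, the shares over all genes were 2.27% lower and 1.18% higher at an unadjusted p under 0.05 by edgeR. Of all genes, 50.5% had lower values, and groups did not overlap in 4.43% (lower) and 3.13% (higher). Of 20 basement membrane partners of laminin, 18 were tested and 0 called by edgeR, DESeq2 or limma-voom (3 at an unadjusted p under 0.05 by edgeR, all lower), 10 with lower and 8 with higher values (median log2 fold change -0.11, against -0.0022 over all genes). Those with the smallest p were lower in aged rats: Nid1, the nidogen that links laminin to collagen IV, averaged 16.3 ± 1.86 CPM at 4 months and 8.07 ± 2.23 CPM at 22 months (SD, n = 3), for a log2 fold change of -1.01 ± 0.24 (SE). Hspg2, which encodes perlecan, averaged 20.9 ± 3.19 CPM at 4 months and 11.9 ± 2.74 CPM at 22 months, and Col4a1, a collagen IV chain, averaged 83.1 ± 7.85 CPM at 4 months and 61.3 ± 11.1 CPM at 22 months. In each of these, picked by p, every aged value lay below every adult value, but the adjusted p was 1.00 by edgeR. Over the list, 6 of the 18 tested partners had such groups. Vessel and meningeal markers had lower values in aged rats too, in 14 of 14 endothelial and 12 of 12 pericyte and smooth muscle genes. So had 9 of 11 tested fibroblast and meningeal genes. The medians were -0.39, -0.62 and -0.47, and 0 of these genes were called by edgeR (2, 5 and 5 at an unadjusted p under 0.05). DESeq2 called 2 of the fibroblast and meningeal genes. Groups did not overlap in 2, 6 and 6 of these markers, all lower. Adult replicate 2 had the highest endothelial and mural marker sums, and the markers' medians were not read without that library.

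The laminin median, -0.15, was less negative than those of these markers, a difference that was not tested, and it was positive without adult replicate 2. Summed over the 11 chains, laminin transcripts came to 234, 251 and 201 CPM in the adult and 202, 217 and 221 CPM in the aged libraries. The summed fibroblast and meningeal markers were 472, 432 and 301 CPM in the adult and 240.2, 247 and 157 CPM in the aged libraries, without overlap between the ages, whereas the laminin sums overlapped.

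**Figure D5:**
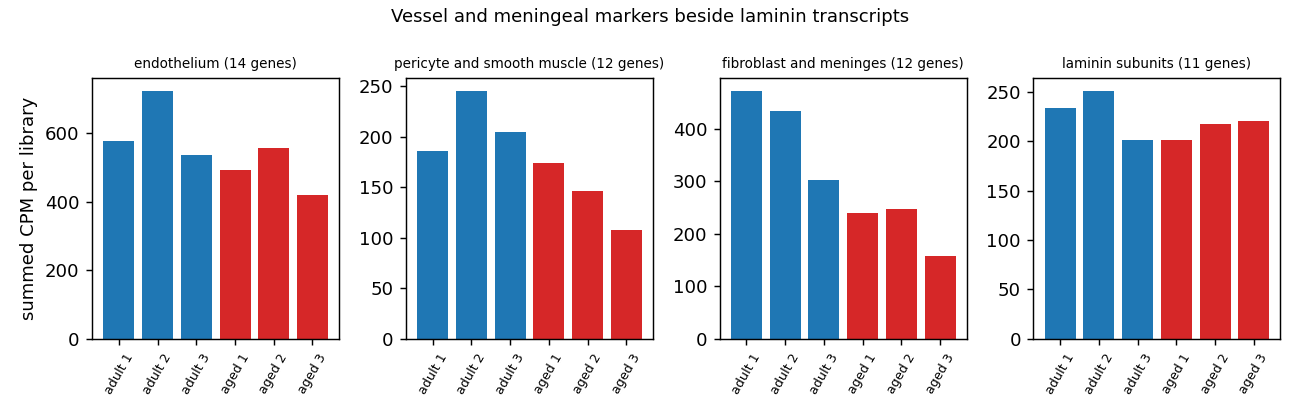
Summed CPM per library (y axis) of 14 endothelial, 12 pericyte and smooth muscle and 12 fibroblast and meningeal markers and of the 11 laminin subunits, adult in blue and aged in red, each panel with its own scale from 0. Pericyte and fibroblast sums are lower in every aged library than in any adult library, and the endothelial and laminin sums overlap.

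Of 24 genes of the dystroglycan complex and other laminin receptors, 22 were tested and 0 called by edgeR, DESeq2 or limma-voom (0 at an unadjusted p under 0.05 by edgeR), 17 with lower and 5 with higher values (median -0.10). Pomt2, which adds the mannose that dystroglycan needs to bind laminin, averaged 14.7 ± 2.57 CPM at 4 months and 20.3 ± 3.96 CPM at 22 months (SD, n = 3), and the syndecan gene Sdc2 averaged 67.4 ± 4.64 CPM at 4 months and 57.6 ± 5.68 CPM at 22 months. Sgca, a sarcoglycan of muscle, averaged 15.5 ± 2.60 CPM at 4 months and 11.8 ± 2.48 CPM at 22 months. The groups overlapped in all 3, and Sgca was highest in adult replicate 3, the library with the most muscle transcripts.

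Of 36 other integrin ligands 35 were tested, with 0 called by edgeR (3 lower and 2 higher at an unadjusted p under 0.05) and 1 by DESeq2, and with 23 lower against 12 higher (median -0.13). Cdh1, which encodes E-cadherin, the ligand of the Itgae and Itgb7 pair, averaged 0.700 ± 0.177 CPM at 4 months and 3.05 ± 0.355 CPM at 22 months (SD, n = 3), for a log2 fold change of 2.11 ± 0.36 (SE). Its adjusted p was 0.510 by edgeR and 0.014 by DESeq2, and all 3 aged libraries were above all 3 adult ones on 8 to 53 counts. Postn, a matrix ligand of alpha v integrins, averaged 5.90 ± 2.04 CPM at 4 months and 2.66 ± 0.477 CPM at 22 months. Ctgf, a secreted matricellular protein, averaged 23.0 ± 8.87 CPM at 4 months and 45.2 ± 9.66 CPM at 22 months. Its aged values were all above the adult ones, and those of Postn were all below. Among the 35 tested ligands, groups did not overlap in 9, 5 lower and 4 higher in aged rats. The list holds the fibrinogen genes Fga, Fgb and Fgg, with log2 fold changes of -1.18, -1.09 and -1.22. Fga and Fgb also served as liver markers, and all 3 were lowest in replicate 1 of each age, as Alb was. The part of liver RNA in this list was not tested.

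Of 44 proteins on the cytoplasmic side of integrin adhesions 43 were tested, with 0 called by edgeR, DESeq2 or limma-voom (3 lower and 2 higher at an unadjusted p under 0.05 by edgeR) and 31 lower against 12 higher (median -0.11). Tns1, the tensin that binds beta subunit tails, averaged 49.7 ± 5.79 CPM at 4 months and 33.8 ± 5.60 CPM at 22 months (SD, n = 3) without overlap. Actn1, an actin cross-linker, averaged 77.1 ± 15.2 CPM at 4 months and 103 ± 13.3 CPM at 22 months, and Cd151, a tetraspanin that associates with laminin-binding integrins, averaged 1.99 ± 0.437 CPM at 4 months and 5.48 ± 3.80 CPM at 22 months. Both overlapped between the ages, Cd151 being high in aged replicates 2 and 3 only. Among the 43 tested, groups did not overlap in 6, all lower in aged rats.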

How the data were processed

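RNA of 6 hippocampal libraries was sequenced, 3 per age. Per the submitters' processing notes the genome build was Rnor 6.0; for the aligner, the counter, the annotation and strand the entry is "not given in the sources used here". The authors deposited raw counts per gene symbol and FPKM, obtained from the counts by dividing by library total and a gene length that is the same in every library.

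Counts were scaled by TMM, filtered with filterByExpr and tested with edgeR 4.0.16's quasi-likelihood test (R 4.3.3) on age alone, with Benjamini-Hochberg adjustment over 14588 genes at a threshold of 0.05. Fold changes are aged over adult. Alternatives were other scalings and filters, DESeq2 1.42.0, limma 3.58.1 (voom, and log2(FPKM + 1) or log2(FPKM + 0.1)), the replicate number as a block, and leaving out each library. The edgeR script was tested on simulated data.

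Members and lists were chosen with earlier results of these data known. Values in all 6 libraries are given for the 12 tested members with the smallest p and the 10 with the highest mean FPKM, and for each pathway list the 3 genes with the smallest p are named; Itga5, Itga8, Itgb3, Itgb4 and Itgb6 were singled out after their values were seen, as were the family shares and ratios. Lamb4 was not analysed here, and the values of 1 tested laminin chain, which counts, medians and sums include, are not reported here. Gene overlaps and promoters came from RefSeq tables of GRCr8, another build than that of the files, matched by symbol (35 of 35).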

Additional observations from a re-analysis of the deposited data

How the results depend on the processing

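Over the scalings, filters, tools and left-out libraries tried, 0 integrin or laminin subunits were called in each; at an unadjusted p under 0.05 there was 1. Over all genes, edgeR called 0, DESeq2 31, limma on log2(FPKM + 1) 2 and leave-one-out fits 0 to 1, with 503 genes at an unadjusted p under 0.05. Leaving out 1 library moved the laminin median between -0.24 and 0.018 (8 subunits lower with all libraries, 5 without adult replicate 2) and the integrin median between -0.14 and 0.078; scalings, filters and tools kept both below 0. Of 493 alternative values of the 29 members with values shown, 30 had the opposite sign, in 14 members. Itga6 was at 0.0022 by limma-voom, 0.018 and 0.023 on log2(FPKM + 1) and log2(FPKM + 0.1), and 0.0063 with the replicate block; Itga8 was at 0.16, 0.074, 0.16 and 0.13. Leaving out 1 library gave Itga10 -0.74 to 0.41, Itga11 -0.079 to 0.89, Itga4 -0.13 to 0.54, Itga6 -0.19 to 0.21, Itga7 -0.16 to 0.12, Itga8 -0.40 to 0.30, Itgae -0.24 to 0.050, Itgb4 -0.49 to 0.30 and Itgb8 -0.17 to 0.056. For laminins it gave Lama1 -0.30 to 0.064, Lama4 -0.44 to 0.018, Lama5 -0.19 to 0.011, Lamb3 -0.63 to 0.076 and Lamc1 -0.25 to 0.019. The cause was not tested. The ratio differences, with leave-outs added after seeing the data, stayed between 0.30 and 0.39 for Lamb1 per Lamb2, -0.61 and -0.46 for Itgb1 per Itgb5, and -0.71 and -0.53 for Itgb1 per Itgb2. These ratios were picked after their values were seen, and their groups do not overlap. Leaving out 1 library could therefore not turn a sign, so the steadiness adds no evidence for them.

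Same-numbered libraries of the ages correlated at -0.14, -0.11 and 0.062 in their deviations from the group means, and 1 of 6 libraries correlated best with its own number. Over all genes the numbers thus gave no sign of pairing, but a shared step that touched few genes would be missed. Alb was low in replicate 1 of both ages, and other liver markers were too. Ahsg stood at 0.068, 27.6 and 22.8 CPM in the adult and at 0, 12.6 and 8.89 CPM in the aged libraries. Serpina1 stood at 2.32, 27.0 and 42.6 CPM in the adult and at 2.06, 17.8 and 13.0 CPM in the aged libraries. Apoa1, Apoa2, Apoc3, Cyp2e1, Fga and Fgb were also lowest in replicate 1 of each age, whereas Tf and Ttr were not. Whether the numbers mark shared handling was not tested. With the replicate block, 0 genes and 0 members were called, and the medians were -0.14 for laminins and -0.063 for integrins. Of the tested members, 14 averaged under 1 FPKM, and for 10 the 95% interval reached past 2-fold; the parts of depth and of the spread between rats in this width were not separated. Nothing in the labels says that reads were assigned by strand, which limits the 18 members that overlap another gene.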
